A study of Homo sapiens with 59 samples.

Results

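Jurkat, a widely used line from a human T cell leukaemia, was compared between medium labelled as 25% tryptophan and a tryptophan control, both collected at day 3, by RNA sequencing of 5 libraries a group. The comparison was taken as every gene whose normalised count averaged 10 or more over these 10 libraries, which gave 16630 genes of the 27883 listed in the tryptophan table (18835 genes reach that mean in at least 1 of the series' 7 tables). The series holds 59 libraries in all, in which 7 essential amino acids were each lowered to 25%, and its 15 control libraries for histidine, methionine and phenylalanine are used below to place the tryptophan control. All groups are labelled as Jurkat, no agent or engineered allele is named, and the composition of the control medium is not stated in the labels. Nothing in the labels ties the 5 libraries of a group to separate cultures, so the p-values rest on the spread among these libraries alone, and that spread may be technical.

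Tryptophan is an essential amino acid that cells import, join to its tRNA with the synthetase WARS1, and build into protein at a single codon, UGG. When an amino acid runs short, uncharged tRNA activates the kinase GCN2 (EIF2AK4), phosphorylation of eIF2 lowers general translation and favours translation of the transcription factor ATF4, and ATF4 raises genes for amino acid import, amino acid synthesis and stress. A second system, mTORC1, senses amino acids at the lysosome and promotes ribosome production and growth. Both are well studied in T cells, in which enzymes that degrade tryptophan limit proliferation.

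The libraries carried the T-lineage genes of the line: all 10 markers listed had a mean of at least 10, with summed levels of 45019 to 47551 in the controls and 39265 to 45038 at 25% tryptophan. The 6 myeloid markers summed to 1.17 to 14.8 and 4.89 to 27.3, with LYZ, CSF1R and MPO at 0 or not listed, and EPCAM, KRT19, MS4A1, CD22 and HBB were also at 0 or not listed. Of the B-lineage, epithelial and fibroblast markers, 1 of 6, 2 of 5 and 1 of 5 reached a mean of 10. The B-lineage sum was 272 to 342 in the controls and 383 to 543 at 25% tryptophan, and the fibroblast sum 153 to 259.9 and 268 to 370.1, so both were higher there without overlap, while the epithelial sums of 153 to 217 and 160.0 to 199 overlapped. What part this has in the results was not tested. The steps between low values put the reads behind each library at 15.2 to 20.7 M in the controls and 12.7 to 21.03 M at 25% tryptophan, as estimates. In a culture sequenced in bulk, fewer cells that use a gene and less of its RNA per cell cannot be told apart.

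Most tested genes differed between the groups, in both directions. In all 8534 genes were called (51.3% of 16630). At 25% tryptophan 3920 genes were higher (23.6%) and 4614 were lower (27.7%), by limma with a Benjamini-Hochberg adjusted p below 0.05, which is the meaning of "called", "rose" and "fell" below. Among these, 1161 genes rose (6.98%) and 732 fell (4.4%) by at least 2-fold. The 5 restricted libraries all lay above the 5 controls for 2593 genes (15.6%) and all below them for 3649 (21.9%). A fold change is the restricted minus the control mean on the scale log2(normalised count + 1), and its median over all tested genes was 0.03. Values after ± are SDs over the 5 libraries of a group. The shares of all genes called higher and lower are given as a background for the counts of list members below. Unless a range of means is named, this background is not matched for mean count. With rising mean count the share of falls went from 2.53% to 61.4%, as described next.

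The falls lay mainly among genes with high counts and the rises among genes with low counts. Genes were ordered by mean count and cut into 10 equal bins. In the bin with the highest means, 61.4% fell and 13.2% rose. In the bin with the lowest means, 2.53% fell and 16.5% rose, as the plot of called shares by mean level shows. Long non-coding RNAs rose in 389 of 1163 cases and fell in 36, against 2780 rises and 4432 falls among 12638 protein-coding genes. With the mean held between 100 and 1000, 51.8% of 220 long non-coding RNAs and 24.5% of 5934 protein-coding genes rose. The normalised counts of a library summed to 15.6 ± 0.293 M at 25% tryptophan and to 18.5 ± 0.276 M in the controls (SD, n = 5; exact permutation p = 0.00794, two-sided, the smallest that 5 against 5 can give). Scaling all libraries to equal totals moves the median log2 fold change up by 0.24 and turns the split to 6832 higher and 2817 lower, so 70.8% of calls are rises, against 45.9% as deposited.

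**Figure D1:**
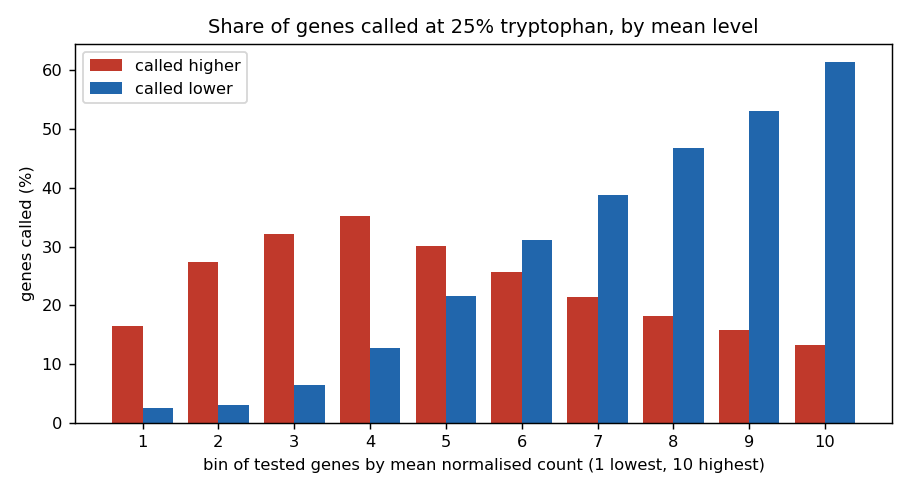
Percentage of genes called higher (red) or lower (blue) at 25% tryptophan in 10 equal bins of the 16630 tested genes, ordered by mean normalised count over the 10 libraries. Falls go from 2.53% in the lowest bin to 61.4% in the highest.

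The tryptophan control libraries were also set beside the control libraries for histidine, methionine and phenylalanine, which are the "other controls" below. The controls shared by the branched-chain amino acids were not compared. Of the 4614 genes that fell, 45.8% had all 5 tryptophan control libraries above every one of these 15 libraries, against 14.4% of all tested genes. Of the 3920 genes that rose, 18.2% had all 5 tryptophan control libraries below all 15, against 6.04% of all tested genes. In the same sense, counts of list members given later as above or below all 15 need all 5 libraries of a group. The tables were normalised separately, so these levels are set side by side without a test, and the choice of called genes used the tryptophan control itself. Whether a difference reflects the restricted medium or the state of the tryptophan control cultures cannot be told apart with these groups, and the levels of the other controls are given for some of the groups and genes. Of the 114 genes described below, 54 had all 5 tryptophan control libraries above all 15 libraries and 22 had all 5 below all 15.

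Among the genes that handle tryptophan itself, the cytosolic synthetase rose and the mitochondrial synthetase fell. WARS1, which charges the tryptophan tRNA in the cytosol (chromosome 14, 100333790 to 100376327, GRCh38.p14), stood at 2089, 1958, 2114, 1925 and 1797 normalised counts in the 5 control libraries and at 2996, 2311, 2704, 2706 and 3001 in the 5 restricted libraries. The groups did not overlap, with a log2 fold change of 0.47, SE 0.08, limma adjusted p = 1.36e-04. WARS2, the mitochondrial counterpart, went from 474, 446, 514, 451 and 362 in the controls to 139, 173, 167, 145 and 156, so every restricted library lay below every control (log2 fold change -1.52, SE 0.11, limma adjusted p = 5.44e-08). AFMID, the formamidase of the kynurenine pathway, was 272 ± 30.2 in the controls and 105 ± 18.3 at 25% tryptophan (SD, n = 5; log2 fold change -1.38, SE 0.14, limma adjusted p = 2.03e-06). Only 9 of the 23 listed genes of tryptophan metabolism reached the mean of 10. Of these 2 rose and 2 fell, near the shares of all genes (23.6% and 27.7%), and with equal totals 4 rose and 2 fell. Their log2 fold changes ran from -1.52 to 1.23. WARS1 averaged 1375 ± 92.4, 1161 ± 109 and 3991 ± 292 in the histidine, methionine and phenylalanine controls, on both sides of the tryptophan groups, and WARS2 averaged 138 ± 27.2, 156 ± 53.4 and 269 ± 26.8, below the tryptophan control. AFMID averaged 104 ± 51.2, 81.4 ± 11.2 and 73.2 ± 24.4 there, also below it. The degrading enzymes IDO1, IDO2 and TDO2 did not reach that mean. Of 11 measured genes that make or use NAD, 4 rose and 1 fell (with equal totals 7 rose and 1 fell). CD38, which degrades NAD, was 360.4 ± 36.96 in the controls and 829 ± 60.5 at 25% tryptophan (log2 fold change 1.20, SE 0.09, limma adjusted p = 5.73e-08), and NAMPT, the salvage enzyme, had a log2 fold change of -0.83 (SE 0.13, limma adjusted p = 1.24e-04). CD38 averaged 1228 ± 29.7, 1223 ± 96.7 and 815 ± 84.5 in the other controls, above the tryptophan control.

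Carriers of amino acids moved both ways. Of 25 measured transporters, 11 rose and 6 fell, where 23.6% of all genes rose and 27.7% fell (median log2 fold change 0.10, against 0.03 for all genes; with equal totals 15 rose and 3 fell). SLC43A1, a carrier of large neutral amino acids, went from 503, 527, 457, 546 and 472 in the control libraries to 1271, 1322, 1392, 1328 and 1329 in the restricted ones, with no overlap (log2 fold change 1.41, SE 0.07, limma adjusted p = 1.09e-09). SLC43A3, its relative that carries purine bases, moved the other way, from 2964, 3118, 2874, 2753 and 3058 to 1145, 1104, 1236, 1097 and 1186, also without overlap (log2 fold change -1.36, SE 0.06, limma adjusted p = 3.99e-10), and averaged 1072 ± 149.6, 1029 ± 132 and 1141 ± 37.1 in the other controls, near its level at 25% tryptophan. SLC7A11, the cystine-glutamate exchanger, was 212 ± 12.4 in the controls and 601 ± 47.6 at 25% tryptophan (log2 fold change 1.499, SE 0.09, limma adjusted p = 4.81e-09). The 2 chains of the main tryptophan importer gave small differences. SLC7A5 was 23459 ± 2811 in the controls and 28120.0 ± 3714 at 25% tryptophan (log2 fold change 0.26, SE 0.10, limma adjusted p = 0.0380, lost on leaving out 1 of 4 libraries, with adjusted p up to 0.0979, and lost with a replicate block at an adjusted p of 0.0818), and SLC3A2 was 10781 ± 498 in the controls and 11123 ± 659 at 25% tryptophan, which did not pass the test (limma adjusted p = 0.526).

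The kinase that senses uncharged tRNA rose while the exchange factor of its target fell. EIF2AK4, encoding GCN2, stood at 1359, 1430.5, 1338, 1421 and 1425 in the controls and at 1976, 2172, 2147, 1938 and 2035 at 25% tryptophan, a rise without overlap (log2 fold change 0.56, SE 0.06, limma adjusted p = 1.26e-06). EIF2B5, the catalytic subunit of eIF2B, which reloads eIF2 with GTP, went from 1778, 1977, 2029.7, 1969.6 and 1762 to 660.1, 672, 684, 804 and 877 (log2 fold change -1.37, SE 0.09, limma adjusted p = 1.26e-08). EIF2B3 (log2 fold change -1.28, SE 0.10, limma adjusted p = 1.34e-07) and EIF2B4 (log2 fold change -0.79, SE 0.06, limma adjusted p = 1.52e-07) fell as well. Over the 15 measured eIF2 kinases, subunits and phosphatase regulators, 2 rose and 9 fell, with a median of -0.19 that becomes 0.05 with equal totals (then 4 rose and 5 fell). In the tryptophan control, 6 of the 15 lay above all 15 other controls and 3 below them. EIF2AK4 averaged 1876 ± 230.1, 1959.7 ± 144 and 1889 ± 108 in the other controls; its tryptophan control mean lay below all 15 and its restricted mean within their range. Of 38 mTORC1 sensing genes 10 rose and 9 fell, shares near those of all genes (23.6% and 27.7%), and with equal totals 19 rose and 1 fell. EIF4EBP1, the translation repressor that mTORC1 phosphorylates, was 358 ± 25.3 in the controls and 645 ± 66.0 at 25% tryptophan (log2 fold change 0.85, SE 0.09, limma adjusted p = 2.18e-06). The sestrin SESN3 (log2 fold change 0.74, SE 0.10, limma adjusted p = 1.67e-05) also rose.

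Most stress regulators and known target genes of ATF4 rose, although the mRNA of ATF4 itself fell. Of 24 listed genes 22 were measured, of which 17 rose and 3 fell (median log2 fold change 0.78, against 0.03 for all genes, and 1.01 with equal totals). TRIB3, a pseudokinase that binds and restrains ATF4 (chromosome 20, 380760 to 397559, GRCh38.p14), stood at 1726, 1782, 1834, 1725 and 1774 in the control libraries and at 10871, 10782, 11102, 11212 and 10164 in the restricted libraries. The lowest restricted library was far above the highest control (log2 fold change 2.61, SE 0.05, limma adjusted p = 1.87e-13). SESN2, a leucine-binding inhibitor of mTORC1, went from 771, 928, 859.9, 822 and 772 to 2509, 2129.7, 2358, 2658 and 2294, again without overlap (log2 fold change 1.52, SE 0.07, limma adjusted p = 1.26e-09). CHAC1, which degrades glutathione, went from 210.1, 235, 293, 207 and 256 to 647, 492, 536, 768 and 705 (log2 fold change 1.38, SE 0.13, limma adjusted p = 1.01e-06). STC2, a secreted glycoprotein, was 1515 ± 115 in the controls and 4207 ± 209 at 25% tryptophan (log2 fold change 1.47, SE 0.06, limma adjusted p = 4.26e-10).

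ATF4 moved against these genes: it stood at 19206, 17486, 17703, 17227 and 16694 in the controls and at 11700.3, 12064, 12248, 12335 and 13084 at 25% tryptophan, so that the restricted libraries were all lower (log2 fold change -0.52, SE 0.05, limma adjusted p = 1.23e-06). ATF5, a related factor, was 19906 ± 665 in the controls and 22374 ± 430.5 at 25% tryptophan (log2 fold change 0.17, SE 0.04, limma adjusted p = 0.00597), and the pro-apoptotic factor DDIT3 (CHOP) was 631 ± 50.4 in the controls and 772 ± 42.1 at 25% tryptophan (log2 fold change 0.29, SE 0.08, limma adjusted p = 0.00488). DDIT4, an inhibitor of mTORC1, was 2101 ± 173 in the controls and 2275 ± 255 at 25% tryptophan and did not pass the limma test (adjusted p = 0.281), but was called with equal totals, at a log2 fold change of 0.36. Several of these genes were low in the tryptophan control. TRIB3 averaged 3269 ± 373, 3285 ± 189 and 15178 ± 1481 in the histidine, methionine and phenylalanine controls (SD, n = 5 each), all above the tryptophan control, and 8 of the 22 genes were lower in the tryptophan control than in all 15 of those libraries. SESN2 and STC2 at 25% tryptophan averaged above all 15.

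Enzymes that make serine, asparagine and related amino acids rose in part, while the folate enzyme MTHFD1 fell. Of 25 genes 12 rose and 8 fell, where 23.6% of all genes rose and 27.7% fell (median log2 fold change 0.16). With equal totals 16 of the 25 rose and 8 fell. ASS1, argininosuccinate synthase, rose from 2738, 3012, 3309, 2756 and 2859.5 to 10401, 7626, 8584, 10221 and 9634 without overlap (log2 fold change 1.66, SE 0.09, limma adjusted p = 1.84e-09). PSAT1, the aminotransferase of serine synthesis, was 4276 ± 353 in the controls and 9132 ± 408 at 25% tryptophan (log2 fold change 1.10, SE 0.06, limma adjusted p = 4.73e-09). ASNS, asparagine synthetase, stood at 623, 344, 430.4, 443 and 408 in the controls and at 885, 1056, 1318, 854 and 1131 at 25% tryptophan, and did not overlap between groups (log2 fold change 1.23, SE 0.15, limma adjusted p = 8.85e-06). MTHFD1, the cytosolic folate enzyme that supplies purine and thymidylate synthesis, fell from 5457, 6389, 6142, 6435 and 5863 to 2299, 1617, 1948, 2216 and 2308 (log2 fold change -1.55, SE 0.09, limma adjusted p = 7.04e-09). In none of these 4 genes did the groups overlap. ASNS averaged 856 ± 107, 853 ± 257 and 519 ± 57.1 in the other controls, above its tryptophan control mean. PSAT1 averaged 7539 ± 257, 7590 ± 453 and 4868 ± 407 there, likewise above its tryptophan control mean. In the other controls ASS1 averaged 8329 ± 666, 9534 ± 552 and 8569.8 ± 729, near its level at 25% tryptophan, and MTHFD1 averaged 2583 ± 352, 2596 ± 287 and 1876 ± 383, below the tryptophan control.

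Promoters of these genes were searched for the C/EBP-ATF response element, the composite site through which ATF4 acts with C/EBP partners (TGATGNAA on either strand, in RefSeq windows of 250 bases before to 50 after the start, GRCh38.p14). It occurred in 3 of 18 promoters of the ATF4 group and 3 of 16 of the serine and asparagine group, against 1.61% of 11275 tested genes with a promoter and 3.67% of 27305 promoters in all. It was held by 1.66% of tested genes that rose, 1.51% of those that fell and 1.65% of those not called. As with the motifs below, these shares are descriptions, and the motif was chosen with results known. The 2 stretches below show it in capitals, in CHAC1, which rose, and in MTHFD1L, a mitochondrial folate enzyme chosen here for its site, which fell (log2 fold change -0.64).
CHAC1 chr15:40953227-40953304 (+ strand): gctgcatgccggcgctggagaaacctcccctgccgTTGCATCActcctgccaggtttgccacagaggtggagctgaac
MTHFD1L chr6:150866322-150866399 (+ strand): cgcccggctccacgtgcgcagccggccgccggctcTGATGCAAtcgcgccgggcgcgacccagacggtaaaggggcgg
In CHAC1 the match lies 209 to 202 bases before the start and is on the opposite strand, and in MTHFD1L it lies 129 to 122 bases before it. Genes with the same letters moved in opposite directions.

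**Figure D2:**
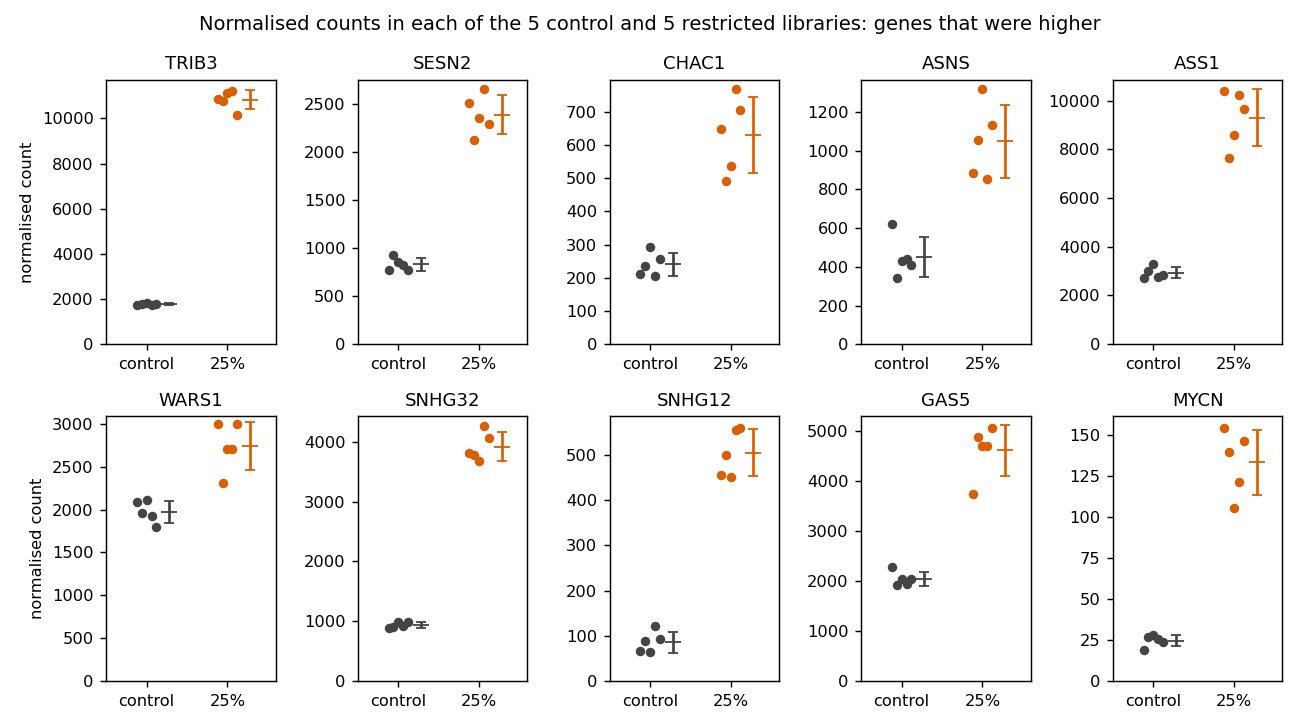
Normalised counts in each library for 10 genes that rose, with the control libraries in grey, the 25% tryptophan libraries in orange, and the mean ± SD (n = 5) beside each group; each panel has its own axis from 0. TRIB3 goes from a mean of 1768 to 10826 and MYCN from 24.6 to 133.

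Outside tryptophan, the synthetases that load tRNAs in the cytosol mostly fell. Of 22 synthetases and accessory proteins other than WARS1, 16 fell and 1 (AARS1) rose (median log2 fold change -0.32; with equal totals 8 fell and 4 rose). FARSA, one chain of the phenylalanine synthetase, dropped from 10872, 12509, 12945, 11011 and 11956 to 3812, 3388, 3441, 3970.1 and 3572 (log2 fold change -1.70, SE 0.06, limma adjusted p = 1.97e-10). FARSB, the other chain, was 4409.6 ± 413 in the controls and 1885 ± 137 at 25% tryptophan (log2 fold change -1.22, SE 0.07, limma adjusted p = 6.43e-09), and AIMP2, a scaffold of the multisynthetase complex, was 1650.3 ± 89.4 in the controls and 616 ± 48.8 at 25% tryptophan (log2 fold change -1.42, SE 0.07, limma adjusted p = 1.51e-09), with restricted library 2 lowest. AARS1, the alanine enzyme, was 8050.5 ± 276 in the controls and 10795 ± 764 at 25% tryptophan (log2 fold change 0.42, SE 0.06, limma adjusted p = 2.11e-05). In the tryptophan control 12 of the 22 were above all 15 other controls, FARSA at 3542 ± 309.9, 2992 ± 193 and 4976 ± 870.1 in those 3 groups.

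Host genes of small nucleolar RNAs, many of whose spliced transcripts are destroyed once ribosomes engage them, were split between rises and no call. Of 16 measured hosts 8 rose and 1 fell (median log2 fold change 0.49), which is close to the shares of long non-coding RNAs with means of 100 to 1000, of which 51.8% rose and 8.18% fell. SNHG32 stood at 893, 897, 982, 927 and 983 in the controls and at 3821, 3787, 3672, 4257 and 4067 at 25% tryptophan (log2 fold change 2.06, SE 0.06, limma adjusted p = 1.99e-11). GAS5 went from 2277, 1927, 2035, 1933 and 2035 to 3746, 4886, 4702, 4707 and 5073, with restricted library 1 the lowest of its group and still above every control (log2 fold change 1.17, SE 0.08, limma adjusted p = 2.74e-08). SNHG12 rose from 66.6, 87.2, 63.1, 121 and 91.7 to 457, 499, 451, 555 and 560.2 (log2 fold change 2.57, SE 0.16, limma adjusted p = 1.28e-08). SNHG5 (log2 fold change 2.88, SE 0.26, limma adjusted p = 5.71e-07) and EPB41L4A-AS1 (log2 fold change 3.20, SE 0.25, limma adjusted p = 1.30e-07) were among the 10 largest rises of called genes whose groups did not overlap and whose higher group averaged at least 100. Whether reads were counted by strand was not given in these sources, so reads of EPB41L4A-AS1 and SNHG12 and of genes that overlap them may be mixed. In the other controls SNHG32 averaged 2953 ± 290.2, 2805 ± 187 and 5387 ± 396, above the tryptophan control. GAS5 averaged 3314 ± 710.0, 3601 ± 602 and 5504 ± 564 there, likewise above it. SNHG12 averaged 56.1 ± 9.09, 58.9 ± 12.96 and 149 ± 40.4, and its 25% tryptophan mean lay above all 15 of those libraries.

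MYC, which drives cell growth and ribosome production, fell, and its relative MYCN rose from a low level. MYC stood at 7528, 10029, 9299, 8410.2 and 10174 in the control libraries and at 3783, 2903, 3473, 4460.0 and 3575 in the restricted libraries, with a gap between the groups (log2 fold change -1.33, SE 0.11, limma adjusted p = 1.46e-07). MYCN went from 18.98, 26.7, 27.7, 25.8 and 23.7 to 154, 139, 105, 121 and 146, also without overlap (log2 fold change 2.39, SE 0.18, limma adjusted p = 7.48e-08). ODC1, the polyamine enzyme and a known MYC target, was 10205 ± 635 in the controls and 5861 ± 418 at 25% tryptophan (log2 fold change -0.80, SE 0.06, limma adjusted p = 9.67e-08). MYC averaged 4267 ± 674, 3442 ± 565 and 3477 ± 395 in the other controls, close to its mean at 25% tryptophan of 3639 and under the tryptophan control of 9088.

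Factors that process ribosomal RNA and assemble ribosomes fell almost throughout. Of 40 genes 39 fell and 0 rose by limma, also 0 at an unadjusted p below 0.05 (median log2 fold change -1.04), and in 38 all restricted libraries lay below all controls; with equal totals 36 fell. UTP4, of the complex that processes the small-subunit RNA, went from 4762, 4097, 4213, 4376 and 4328 to 1502, 1508, 1560.2, 1421 and 1592 (log2 fold change -1.52, SE 0.06, limma adjusted p = 1.54e-10). BYSL, needed for small-subunit assembly, was 2327 ± 42.7 in the controls and 767 ± 63.4 at 25% tryptophan (log2 fold change -1.60, SE 0.06, limma adjusted p = 2.96e-10), and RRP12, an export factor of pre-ribosomes, was 3681 ± 236 in the controls and 1355 ± 50.5 at 25% tryptophan (log2 fold change -1.44, SE 0.06, limma adjusted p = 3.11e-10). In the tryptophan control 35 of the 40 genes were above all 15 other controls. At 25% tryptophan 5 were above and 0 below all 15, and UTP4 averaged 1209 ± 189, 1199 ± 81.9 and 1301 ± 74.6 in the other controls.

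The E-box CACGTG, the preferred site of MYC and its relatives, was found in 12 of 34 promoters of these genes (35.3%), against 10.1% of the tested genes and 7.43% of all promoters. These shares cover the whole 300-base RefSeq window (GRCh38.p14), and the motif reads the same on both strands. It was held by 8.48% of tested genes that rose, 11.8% of those that fell and 9.61% of those not called. UTP4 and UTP20, a scaffold protein of the same complex, are shown with the match in capitals. They were picked by small adjusted p among list members with a match in the 250 bases before the start.
UTP4 chr16:69132598-69132648 (+ strand): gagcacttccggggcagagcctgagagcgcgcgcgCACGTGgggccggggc
UTP20 chr12:101280060-101280104 (+ strand): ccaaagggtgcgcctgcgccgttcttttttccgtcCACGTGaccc
The last base of the match lies 11 bases before the start in UTP4 and 5 in UTP20, which also fell (log2 fold change -1.32).

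Ribosomal proteins leaned downward as deposited but not with equal totals. Of 78 genes 37 fell and 6 rose, at a median of -0.19 and with log2 fold changes from -1.34 to 1.22. With equal totals the median turned to 0.06, where 30 rose and 21 fell. In the bin of genes with the highest means, 61.4% fell and 13.2% rose, at a median of -0.31. How many of the 78 lie in that bin was not counted. In the tryptophan control 38 of the 78 lay below all 15 other controls, and 57 did so at 25% tryptophan. RPL7A was 18081 ± 1208 in the controls and 7283 ± 645 at 25% tryptophan (log2 fold change -1.31, SE 0.07, limma adjusted p = 1.66e-09), RPS15 had a log2 fold change of -1.19 (SE 0.06, limma adjusted p = 2.47e-09) and RPL24 had a log2 fold change of -0.98 (SE 0.05, limma adjusted p = 4.19e-09). Processed copies of these genes are common in the genome, and how reads were shared with them is not known here. Together the ribosomal proteins made up 4.78 to 5.22% of normalised counts in the controls and 4.93 to 5.28% at 25% tryptophan. Translation factors fell in 19 of 28 cases and rose in 2 (median log2 fold change -0.40; with equal totals 7 rose and 14 fell, at a median of -0.15). EIF4A1, the helicase that unwinds mRNA leaders, went from 27691, 24222, 24858, 24211 and 23099.9 to 7858, 6931, 8307, 8133 and 8350.4 (log2 fold change -1.65, SE 0.06, limma adjusted p = 2.54e-10), and EIF3B (log2 fold change -1.12, SE 0.05, limma adjusted p = 3.15e-10) and EIF4G1 (log2 fold change -1.11, SE 0.05, limma adjusted p = 3.15e-10) fell too. EIF4A1 averaged 7656 ± 501, 7902 ± 735 and 9833 ± 1347 in the other controls, and its tryptophan control lay above all 15. Of the 28 translation factors 11 were above and 7 below all 15 in the tryptophan control.

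The replication machinery fell without exception. All 44 of 44 measured replication genes fell, with log2 fold changes from -2.11 to -0.43 (median log2 fold change -1.29), and no restricted library reached a control library in any of them; the count is 44 with equal totals as well. MCM10, which activates the replicative helicase, stood at 3446, 3635, 3501, 3652 and 3394 in the controls and at 740.2, 867, 812, 797 and 874 at 25% tryptophan (log2 fold change -2.11, SE 0.06, limma adjusted p = 1.99e-11). MCM2, a subunit of that helicase, went from 10132, 11450.2, 11187, 10304 and 11153 to 3617, 3321, 3689, 3863 and 3615 (log2 fold change -1.58, SE 0.06, limma adjusted p = 1.05e-10). E2F2, a transcription factor of the G1 to S transition, went from 3938, 4268, 4310.1, 4369.7 and 4571 to 1316, 1204, 1215, 1391 and 1159 (log2 fold change -1.77, SE 0.06, limma adjusted p = 1.16e-10). In all 3 the restricted libraries formed a narrow band under the controls. MCM7, another helicase subunit, was 17542 ± 897 in the controls and 6529 ± 359 at 25% tryptophan (log2 fold change -1.43, SE 0.06, limma adjusted p = 2.29e-10). In the tryptophan control 32 of the 44 were above all 15 other controls. At 25% tryptophan 5 were below all 15, and MCM10 averaged 1805 ± 152, 1877 ± 194 and 870.3 ± 118 in the other controls, so its restricted mean of 818 lay under the first 2 and near the third.

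E2F factors bind short GC-rich sites in promoters of replication genes. The letters TTTGGCGC, TTTCCCGC and TTTCGCGC were searched on both strands in the same 300-base RefSeq windows (GRCh38.p14), and 18 of 37 replication promoters held at least 1 (48.6%), against 4.66% of tested genes and 2.79% of all promoters. Among tested genes 2.56% of those that rose, 6.46% of those that fell and 4.35% of those not called held 1 or more. E2F2 and MCM7, which both fell, are shown with the match in capitals. They were picked by small adjusted p among list members with a match in the 250 bases before the start.
E2F2 chr1:23531234-23531310 (- strand): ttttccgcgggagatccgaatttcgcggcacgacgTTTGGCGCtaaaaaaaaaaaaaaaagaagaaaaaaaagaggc
MCM7 chr7:100101398-100101441 (- strand): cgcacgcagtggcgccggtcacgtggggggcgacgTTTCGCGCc
The match in E2F2 lies 42 to 35 bases before the start. In MCM7 the match shown lies 9 to 2 bases before it, and it is 1 of 2 in the 250 bases.

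Mitotic genes mostly fell. Of 30 genes 20 fell and 0 rose by limma, with 1 higher at an unadjusted p below 0.05 (median log2 fold change -0.47; with equal totals 16 fell and 5 rose). CDC20, the activator of the anaphase-promoting complex, was 4281 ± 172 in the controls and 2148 ± 126 at 25% tryptophan (log2 fold change -0.996, SE 0.06, limma adjusted p = 4.29e-09). CCNA2, cyclin A (log2 fold change -0.85, SE 0.08, limma adjusted p = 4.55e-07), and KIF11, the spindle motor (log2 fold change -0.74, SE 0.07, limma adjusted p = 5.71e-07), fell as well. MKI67, the proliferation marker, stood at 17809, 17286, 15531, 18526 and 18133 in the controls and at 11118, 12271, 11114, 11812 and 12290.0 at 25% tryptophan, without overlap (log2 fold change -0.57, SE 0.06, limma adjusted p = 1.52e-06). Of 18 cell-cycle regulators 6 rose and 9 fell (median -0.20, and 0.04 with equal totals). CDKN1A, the p21 inhibitor, was one of the 10 largest falls, from 235, 294, 256, 263 and 246 to 54.3, 27.2, 49.4, 61.7 and 50.7 (log2 fold change -2.43, SE 0.19, limma adjusted p = 1.23e-07). CDK4 (log2 fold change -0.88, SE 0.06, limma adjusted p = 5.79e-08) and FOXO3 (log2 fold change -0.78, SE 0.07, limma adjusted p = 3.27e-07) also fell. Histone genes of S phase fell in 10 of 19 cases and rose in 2, although near-identical copies and unpolyadenylated transcripts make single histone values uncertain.

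JUN and the phosphatases that switch off MAP kinases were much lower at 25% tryptophan. Of 26 immediate-early genes and feedback inhibitors 15 fell and 2 rose (median log2 fold change -0.37; with equal totals 4 rose and 11 fell). JUN, a subunit of AP-1, stood at 2709, 2221, 1924, 2381 and 1960.0 in the control libraries and at 114, 82.7, 226, 232 and 125 in the restricted libraries (log2 fold change -3.94, SE 0.24, limma adjusted p = 8.35e-09). DUSP10, which dephosphorylates the kinases JNK and p38, went from 684, 633, 575, 651 and 541 to 104, 124, 97.2, 117 and 102 (log2 fold change -2.49, SE 0.10, limma adjusted p = 3.19e-10). In both genes the highest restricted library was far below the lowest control. DUSP8, which acts on the same kinases, was 1118 ± 113 in the controls and 157 ± 19.5 at 25% tryptophan (log2 fold change -2.83, SE 0.10, limma adjusted p = 1.45e-10), and DUSP1 was 478 ± 37.3 in the controls and 135 ± 13.04 at 25% tryptophan (log2 fold change -1.81, SE 0.10, limma adjusted p = 3.43e-09). CREB5, a leucine-zipper factor that pairs with JUN (chromosome 7, 28299321 to 28825894, GRCh38.p14), had the largest fall of all named genes, from 617, 727, 609.9, 744 and 730.4 to 9.69, 5.18, 24.98, 13.9 and 11.3 (log2 fold change -5.77, SE 0.29, limma adjusted p = 1.33e-09). JUND, the AP-1 member with steadier expression, was 4042 ± 798 in the controls and 1683 ± 372 at 25% tryptophan (log2 fold change -1.27, SE 0.16, limma adjusted p = 1.15e-05). For JUN, DUSP10, DUSP8 and CREB5 the 25% tryptophan mean lay within the range of the 15 other control libraries and the tryptophan control mean lay above it. The other controls averaged 217 ± 132, 122 ± 45.1 and 92.3 ± 58.1 for JUN, 105 ± 18.8, 109 ± 8.34 and 114 ± 44.99 for DUSP10 and 19.2 ± 19.98, 8.83 ± 5.50 and 14.03 ± 3.58 for CREB5.

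Cytosolic chaperones mostly fell. Of 20 measured heat-shock genes 18 fell and 0 rose by limma, also 0 at an unadjusted p below 0.05 (median log2 fold change -1.07), and with equal totals 15 fell. HSPA8, the constitutive HSP70, stood at 41274, 36135, 34143, 38269.8 and 33193 in the controls and at 6925, 6854, 6673, 6685 and 7065 at 25% tryptophan, with a wide gap (log2 fold change -2.42, SE 0.06, limma adjusted p = 6.80e-12). HSP90AA1, the inducible HSP90, was 75317 ± 8401 in the controls and 25783 ± 2329 at 25% tryptophan (log2 fold change -1.54, SE 0.08, limma adjusted p = 2.43e-09). HSP90AB1, the constitutive HSP90, was 43932 ± 1882 in the controls and 18404 ± 1077 at 25% tryptophan (log2 fold change -1.26, SE 0.05, limma adjusted p = 4.49e-10), with restricted library 1 lowest, and HSPH1, the exchange factor of HSP70, was 4138 ± 401 in the controls and 1567 ± 90.2 at 25% tryptophan (log2 fold change -1.40, SE 0.07, limma adjusted p = 1.53e-09). HSPA8 averaged 15657 ± 856, 15746 ± 2019 and 12309 ± 934 in the other controls, between its levels in the tryptophan groups. In the list, 13 genes were above all 15 other controls in the tryptophan control and 8 were below all 15 at 25% tryptophan.

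Heat-shock elements, bound by HSF1, consist of inverted repeats of a short unit. The repeat GAANNTTC, which reads the same on both strands and was searched in those RefSeq windows (GRCh38.p14), occurred in 6 of 19 promoters of the heat-shock genes (31.6%), against 4.58% of tested genes and 6.87% of all promoters. Over all tested genes the repeat was held by 4.53% of those that rose, 4.61% of those that fell and 4.57% of those not called. HSPA8 and DNAJA1, a co-chaperone of HSP70, both fell and are shown with the repeat in capitals. They were picked by small adjusted p among list members with a match in the 250 bases before the start.
HSPA8 chr11:123062144-123062221 (- strand): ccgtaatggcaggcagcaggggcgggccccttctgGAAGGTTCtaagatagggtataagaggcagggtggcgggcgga
DNAJA1 chr9:33025040-33025117 (+ strand): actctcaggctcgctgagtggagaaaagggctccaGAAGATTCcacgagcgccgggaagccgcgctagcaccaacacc
The HSPA8 match shown lies 50 to 43 bases before the start and is 1 of 2 in the 250 bases. The DNAJA1 match lies 198 to 191 bases before the start (log2 fold change -1.23).

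**Figure D3:**
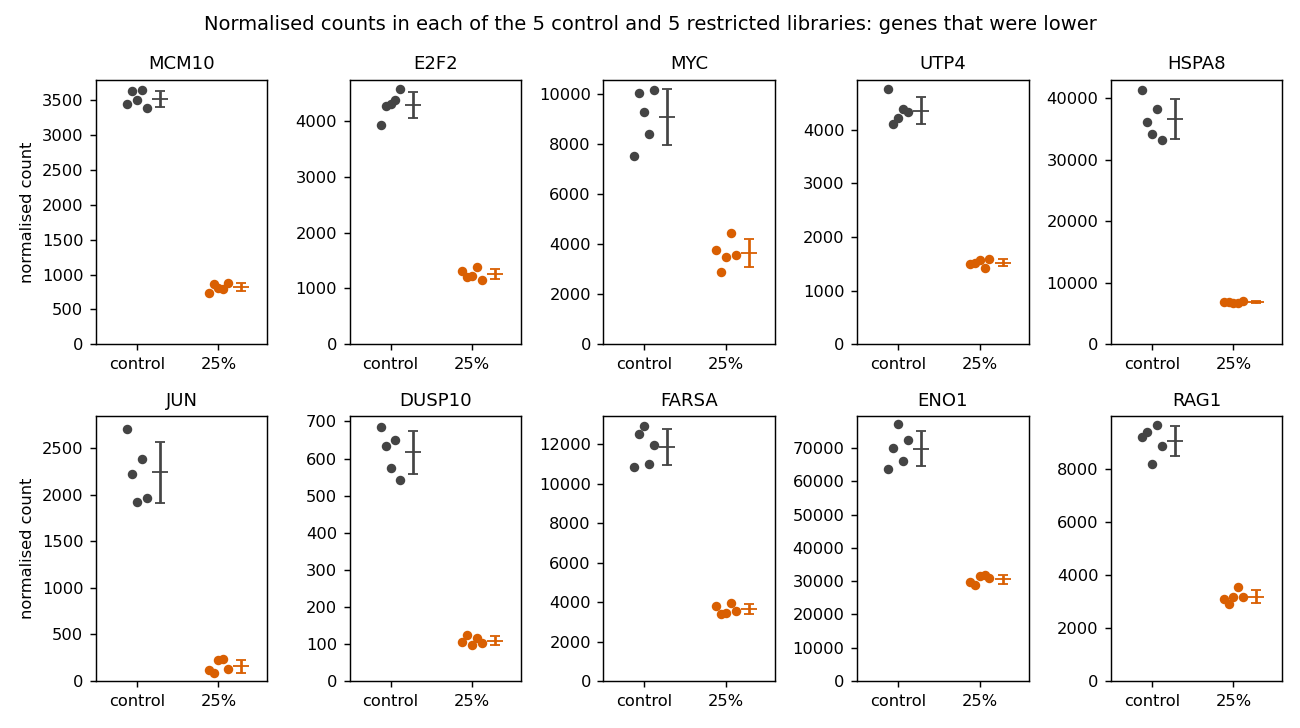
Normalised counts in each library for 10 genes that fell, drawn as for the genes that rose: controls in grey, 25% tryptophan in orange, mean ± SD (n = 5) beside each group, each axis from 0. HSPA8 goes from a mean of 36603 to 6840.4 and JUN from 2239 to 156, and in none of the 10 panels do the groups overlap.

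In the endoplasmic reticulum, the main chaperone fell while a sensor and a degradation factor rose. Of 28 genes of the unfolded protein response 7 rose and 14 fell, with a median of -0.19 that turns to 0.06 with equal totals (then 13 rose and 7 fell). In the tryptophan control 9 of the 28 lay below all 15 other controls. HSPA5 (BiP), the main lumenal chaperone, went from 7393, 7803, 7321, 7818 and 7551 to 3846, 3804, 3785, 3581 and 3927 (log2 fold change -0.9998, SE 0.05, limma adjusted p = 9.50e-10). ERN1, the sensor IRE1, rose from 450.0, 477, 428, 448 and 555 to 1608, 1906, 1615, 1886 and 1620.0 (log2 fold change 1.87, SE 0.08, limma adjusted p = 6.38e-10), and SEL1L, of the complex that removes misfolded proteins, was 2135 ± 182 in the controls and 5180.1 ± 396 at 25% tryptophan (log2 fold change 1.28, SE 0.07, limma adjusted p = 3.64e-09). The other controls differed widely among themselves here, with HSPA5 at 8575 ± 1547, 8653 ± 559 and 42265 ± 1738.

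Nuclear genes of energy metabolism mostly fell. Of 27 glycolytic genes 19 fell and 1 rose (median log2 fold change -0.39), and with equal totals 12 fell and 2 rose. In the bin of genes with the highest means, 61.4% fell and 13.2% rose, at a median of -0.31. How many glycolytic genes lie in that bin was not counted. ENO1, enolase, went from 63679.6, 69931, 77083, 66006 and 72272 to 29635, 28694, 31455, 31741 and 30917 (log2 fold change -1.19, SE 0.06, limma adjusted p = 1.45e-09), LDHA, which makes lactate, was 21727 ± 370.3 in the controls and 9679.7 ± 863 at 25% tryptophan (log2 fold change -1.17, SE 0.06, limma adjusted p = 2.32e-09), and TPI1 had a log2 fold change of -1.002 (SE 0.06, limma adjusted p = 4.19e-09). No restricted library reached a control in these 3 genes. Nuclear subunits of oxidative phosphorylation fell in 28 of 37 cases (median log2 fold change -0.42; with equal totals 17 fell and 5 rose). ATP5MC1, a rotor subunit of ATP synthase, was 1752 ± 188 in the controls and 481 ± 46.7 at 25% tryptophan (log2 fold change -1.86, SE 0.09, limma adjusted p = 9.51e-10), and SDHA (log2 fold change -1.02, SE 0.05, limma adjusted p = 1.18e-09) and cytochrome c, CYCS (log2 fold change -0.93, SE 0.06, limma adjusted p = 3.04e-08), fell too. Of the 13 protein-coding mitochondrial mRNAs 3 rose and 0 fell by limma, with 0 lower at an unadjusted p below 0.05. The rises numbered from 0 to 9 on leaving out 1 library, and were 6 with equal totals. They came to 9 once restricted library 2 was removed, to 0 after removal of number 1 or 3 of the restricted group or 3, 4 or 5 of the controls, and to 1 after removal of restricted 4, restricted 5 or control 2.

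Genes of lipid synthesis mostly fell. Of 22 cholesterol genes 18 fell and 1 rose (median log2 fold change -0.78; with equal totals 2 rose and 13 fell), and of 17 fatty acid genes 12 fell and 1 rose (median log2 fold change -0.49; with equal totals 3 rose and 10 fell). FDPS, which makes farnesyl diphosphate, went from 2809, 3205, 3078, 2896 and 3056 to 1640.2, 1531, 1564, 1503 and 1678 (log2 fold change -0.93, SE 0.06, limma adjusted p = 1.03e-08). SQLE (log2 fold change -0.78, SE 0.06, limma adjusted p = 1.00e-07), ACAT2 (log2 fold change -1.01, SE 0.08, limma adjusted p = 1.74e-07) and HMGCS1, an early enzyme of the pathway (log2 fold change -0.78, SE 0.10, limma adjusted p = 2.08e-05), fell too. The desaturase FADS1 was 3393 ± 85.2 in the controls and 2107 ± 161 at 25% tryptophan (log2 fold change -0.69, SE 0.06, limma adjusted p = 2.75e-07), the elongase ELOVL5 had a log2 fold change of -0.57 (SE 0.05, limma adjusted p = 7.83e-07), and fatty acid synthase, FASN, had a log2 fold change of -0.90 (SE 0.10, limma adjusted p = 4.55e-06). The other controls were far apart for these genes, with HMGCS1 at 6442 ± 1068, 6829 ± 609 and 1336 ± 139.7, and 0 of 22 cholesterol genes in the tryptophan control were above all of them.

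TXNIP, an inhibitor of thioredoxin and of glucose uptake, and its relative ARRDC4 rose. TXNIP stood at 3233, 2961, 2825, 3085 and 2579.8 in the controls and at 5694, 6001, 5554, 6044 and 5899 at 25% tryptophan, without overlap (log2 fold change 0.99, SE 0.06, limma adjusted p = 1.26e-08). ARRDC4 went from 285, 184, 201, 186 and 181 to 445, 528, 566, 518 and 547, with control library 1 the highest control and below every restricted library (log2 fold change 1.34, SE 0.13, limma adjusted p = 7.45e-07). Of 7 arrestin-like genes and their regulators 4 rose and 1 fell. TXNIP averaged 673 ± 484, 522 ± 14.99 and 352 ± 179 in the other controls, so both tryptophan groups were above all 15 of those libraries, and the same held for ARRDC4 at 65.02 ± 15.1, 43.6 ± 13.05 and 64.7 ± 25.4.

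Genes of cell death moved in both directions. Of 21 measured p53 target genes 10 rose and 5 fell, against 23.6% and 27.7% of all genes. Their log2 fold changes ran from -2.43 to 1.22, with a median of 0.31, and with equal totals 12 rose and 4 fell. AEN, an exonuclease of apoptosis, was 1407 ± 96.4 in the controls and 545 ± 80.97 at 25% tryptophan (log2 fold change -1.38, SE 0.10, limma adjusted p = 4.52e-08). Of 15 BCL2 family genes 2 rose, 5 fell and 8 were not called, where 23.6% of all genes rose and 27.7% fell. With equal totals 3 of them rose and 3 fell. The pro-death members PMAIP1 (NOXA; log2 fold change -1.24, SE 0.08, limma adjusted p = 1.99e-08) and BMF (log2 fold change 1.18, SE 0.15, limma adjusted p = 1.11e-05, restricted library 1 highest) went opposite ways, and the survival factor MCL1 was 3902 ± 191 in the controls and 3035 ± 237 at 25% tryptophan (log2 fold change -0.36, SE 0.06, limma adjusted p = 2.07e-04, not called with equal totals). AEN averaged 475 ± 54.9, 454 ± 33.02 and 644 ± 59.5 in the other controls and PMAIP1 927 ± 108, 969 ± 148 and 678 ± 56.98, in both cases under the tryptophan control.

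T cell receptor genes gave 9 rises and 10 falls among 26, against 23.6% and 27.7% of all genes, and with equal totals 13 rose and 6 fell. TRBC1, a constant segment of the receptor beta chain that resembles its neighbour TRBC2 closely, went from 22836, 21002, 23512, 19355 and 21541 to 10287, 10949.8, 11450.3, 10673 and 10232 (log2 fold change -1.01, SE 0.06, limma adjusted p = 6.64e-09), and averaged 13384 ± 868, 12327 ± 915 and 13036 ± 3587 in the other controls. FYN, a kinase that phosphorylates the receptor, was 1991 ± 41.99 in the controls and 3879.7 ± 270.3 at 25% tryptophan (log2 fold change 0.96, SE 0.06, limma adjusted p = 7.43e-09, control library 2 highest of the controls), and THEMIS, a thymocyte signalling adaptor, was 5077 ± 252 in the controls and 3117 ± 179 at 25% tryptophan (log2 fold change -0.70, SE 0.06, limma adjusted p = 1.47e-07). CD3E, a receptor subunit, was 11191 ± 390.3 in the controls and 11634 ± 592 at 25% tryptophan and did not pass the limma test (adjusted p = 0.383), but was called with equal totals at 0.30. Among 22 factors of the thymocyte and leukaemia programme 11 fell and 3 rose (median -0.21, and 0.04 with equal totals, where 6 rose and 7 fell). RAG1, the recombinase of receptor genes, went from 9214, 9398, 8181, 9640.5 and 8848 to 3089, 2894, 3184, 3559.7 and 3162, without overlap (log2 fold change -1.51, SE 0.06, limma adjusted p = 3.59e-10), and averaged 1957 ± 147, 2509.6 ± 126 and 3526 ± 668 in the other controls. DNTT, which adds bases at the joins, was 5008 ± 276 in the controls and 2455 ± 182 at 25% tryptophan (log2 fold change -1.03, SE 0.06, limma adjusted p = 8.87e-09), and LEF1, a Wnt factor, had a log2 fold change of -0.84 (SE 0.06, limma adjusted p = 7.25e-08).

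Receptors and regulators of migration leaned upward, with 9 rises and 3 falls among 18 (median log2 fold change 0.57). The chemokine receptor CXCR4 was an exception, from 10428, 9852, 9792, 9527 and 9286 to 3975, 3631, 4119, 4263 and 4149 (log2 fold change -1.28, SE 0.06, limma adjusted p = 4.31e-10), and averaged 6105 ± 134, 6493 ± 119 and 5016 ± 196 in the other controls, between the tryptophan groups. RGS16, which dampens such receptors, was 177 ± 22.2 in the controls and 579 ± 84.4 at 25% tryptophan (log2 fold change 1.70, SE 0.11, limma adjusted p = 2.53e-08), with restricted library 2 highest, and ITGB2, the integrin chain of leukocytes, was 1449 ± 140.4 in the controls and 2578 ± 216 at 25% tryptophan (log2 fold change 0.83, SE 0.08, limma adjusted p = 6.96e-07). Antigen presentation genes rose in 10 of 22 cases and fell in 2 (median log2 fold change 0.26; with equal totals 17 rose and 1 fell). ERAP1, the peptide-trimming protease, had a log2 fold change of 0.59 (SE 0.06, limma adjusted p = 3.04e-06).

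**Figure D4:**
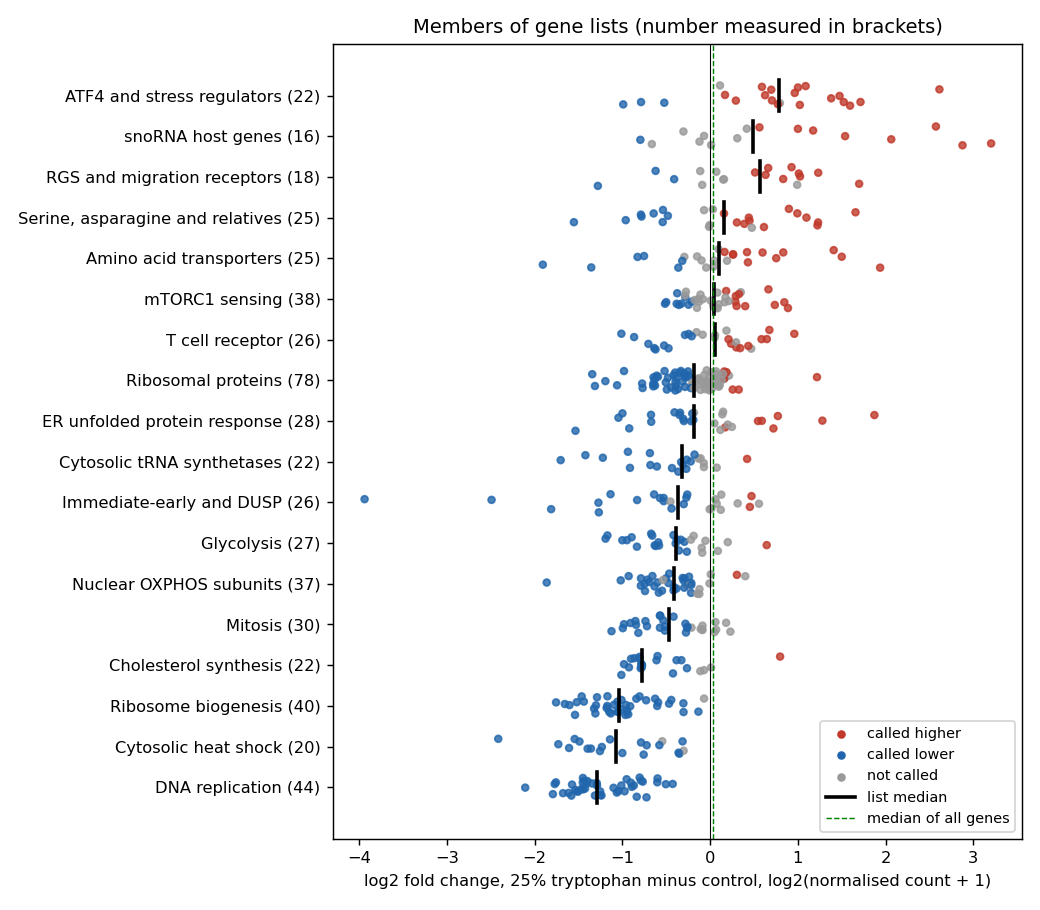
Log2 fold change of each measured member of 18 gene lists, with red points called higher, blue points called lower and grey points not called; the black bar is the list median and the dashed green line the median of all tested genes (0.03). The list of DNA replication genes lies wholly below 0, around a median of -1.29, and the ATF4 group has a median of 0.78.

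Other large changes lay outside these lists. Among called genes whose groups did not overlap and whose higher group averaged at least 100, MFAP4, an extracellular matrix protein (chromosome 17, 19383445 to 19387190, GRCh38.p14), stood at 66.1, 83.9, 72.6, 75.5 and 86.98 in the controls and at 954, 785, 840.2, 892 and 873 at 25% tryptophan (log2 fold change 3.48, SE 0.10, limma adjusted p = 1.99e-11). KLHDC7B (log2 fold change 4.08, SE 0.32, limma adjusted p = 1.01e-07) rose most. CHGB, a granule protein (log2 fold change 3.12, SE 0.30, limma adjusted p = 9.24e-07), DMGDH, the mitochondrial dimethylglycine dehydrogenase (log2 fold change 2.98, SE 0.29, limma adjusted p = 1.17e-06), SPNS3, of the lipid transporter family of SPNS2 (log2 fold change 2.90, SE 0.12, limma adjusted p = 3.15e-10), and CST7, a protease inhibitor of cytotoxic cells (log2 fold change 2.89, SE 0.20, limma adjusted p = 2.89e-08), followed. SPNS3, with the highest restricted count of the genes named here, went from 372, 302, 271, 319.8 and 227 to 2515, 1893, 2062, 2272 and 2327. Beside CREB5, JUN, DUSP10, DUSP8 and CDKN1A, the largest falls held TRIB1, a pseudokinase that marks C/EBP factors for degradation, from 264, 277, 266, 172 and 235 to 12.5, 22.6, 14.7, 24.1 and 6.56 (log2 fold change -3.94, SE 0.29, limma adjusted p = 6.97e-08). FXYD2, a regulator of the sodium pump, was 1839.7 ± 149 in the controls and 243 ± 23.8 at 25% tryptophan (log2 fold change -2.92, SE 0.08, limma adjusted p = 1.99e-11), and ITPKA, an inositol phosphate kinase, had a log2 fold change of -2.47 (SE 0.19, limma adjusted p = 7.36e-08). In the other controls MFAP4 averaged 611 ± 80.05, 605 ± 98.2 and 1270.3 ± 177 and FXYD2 209 ± 42.2, 238 ± 60.9 and 306 ± 26.1, and the 25% tryptophan means lay within the range of those 15 libraries.

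**Figure D5:**
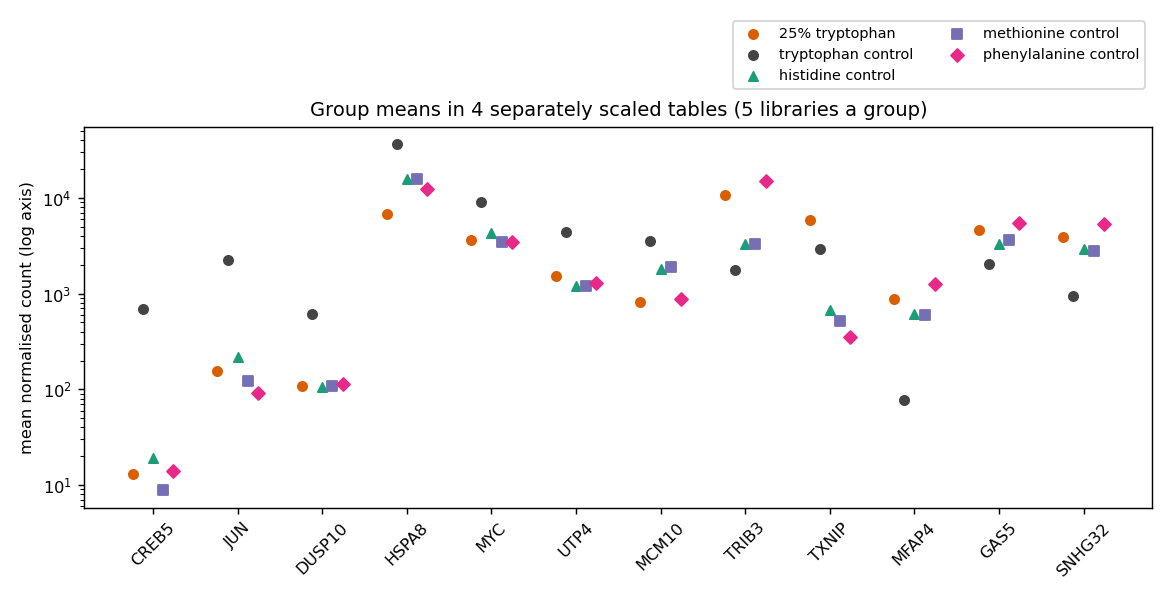
Mean normalised count (log axis) of 12 genes in the 25% tryptophan libraries, the tryptophan control and the histidine, methionine and phenylalanine controls, 5 libraries a group, in 4 tables that were scaled separately. For CREB5 and JUN the tryptophan control is the group apart (686 and 2239); for TXNIP both tryptophan groups lie above the other controls.

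Tryptophan codons were counted because a shortage acts at them during translation. In the longest coding sequence per gene (GENCODE 29; 12351 genes matched), the median share of UGG (TGG) codons was 1.15% among genes that rose, 1.04% among those that fell and 1.11% among those not called. Genes that rose at least 2-fold had a median of 1.31%, and those that fell at least 2-fold 1.09%. Across genes, which are not independent replicates, Spearman's rho between the codon share and the log2 fold change was 0.05, against -0.37 between the mean level and the log2 fold change.

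The tryptophan response was set against those to histidine, methionine and phenylalanine restriction, each measured against its own 5 controls, by a limma interaction term within separately scaled tables. It differed from the histidine response in 7016 of 16216 genes (43.3%), from the methionine response in 8631 of 16094 (53.6%) and from the phenylalanine response in 5265 of 16168 (32.6%). Higher and lower here refer to the log2 fold change of a response and not to the level. Ribosome biogenesis genes were lower under tryptophan than under histidine in 35 of 40 cases (all genes 25.7%), than under methionine in 36 of 40 (all genes 28.6%) and than under phenylalanine in 34 of 40 (all genes 18.2%). The median response of that list was 0.02, 0.47 and 0.11 in the 3 others, and the median difference was -1.06, -1.43 and -1.02, against -0.0049, -0.01 and -0.01 over all genes. Replication genes were lower under tryptophan than under histidine in 42 of 44 cases and than under phenylalanine in 35 of 44. Against methionine they were split, 10 higher and 10 lower, where the methionine response itself had a median of -1.27. Cholesterol genes were higher under tryptophan than under methionine in 19 of 22 cases, that is, they fell less, and ribosomal proteins in 73 of 78 (all genes 25.0%). ATF4 regulators were higher under tryptophan in 13, 14 and 17 of 22 cases against histidine, methionine and phenylalanine (all genes 17.5%, 25.0% and 14.3%).

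Of 15774 genes tested in all 4 tables, 845 rose under tryptophan and were higher than in each of the other 3 responses (5.36%), and 1818 fell and were lower than in each (11.5%). JAML, an adhesion molecule of leukocytes, had a log2 fold change of 2.67 under tryptophan against -0.12, 0.54 and -0.93 under histidine, methionine and phenylalanine. H2BC21, a polyadenylated histone H2B gene with near-identical relatives, had 1.71 against -0.87, -3.04 and -1.49, and MFAP4 had 3.48 against -0.01, 1.12 and -1.02. Among the falls, CREB5 had -5.77 against 0.74, 0.72 and -0.75, JUN -3.94 against -0.23, -0.94 and 0.78, and DUSP10 -2.49 against 0.57, 0.80 and 0.58. These 6 genes were chosen because they differed from all 3 other responses, so their values are a description. In the restricted libraries of the other tables DUSP10 averaged 155, 190.5 and 166, against 109 at 25% tryptophan, while the tryptophan control averaged 617.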

How the data were processed

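Column-purified total RNA from each sample, 1 µg, was made into stranded Illumina libraries, per the labels. For each amino acid the authors deposited a separately scaled table of normalised counts, treated here as a signal because they are not whole. The submitters' processing notes name kallisto 0.50.1, DESeq2 1.44.0, FastQC 0.11.9 and the build GRCh38. Their settings, the annotation and the use of strand are not given in these sources. Low values were whole multiples of a common step, within 0.1, in no more than 81.4% of cases per library. Whole reads were therefore not recovered and no count model was fitted.

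The 16630 genes averaging 10 or more were tested as log2(normalised count + 1) by limma 3.58.1 (R 4.3.3; lmFit and trended eBayes, two-sided), with Benjamini-Hochberg adjustment over all of them. Members and gene lists were chosen with earlier results of these data known. Named were the 10 largest rises and falls among called, non-overlapping genes averaging at least 100 in the higher group, the 3 members with the smallest adjusted p and the most abundant member of each list, fixed genes such as WARS1 and TRIB3, and 3 genes per direction that differed from all 3 other responses; some are left out for length and a few are not reported here. Names and positions come from RefSeq (GRCh38.p14), as do promoters, matched by symbol for 11275 tested genes. Alternatives were pseudocounts of 0.25 and 5, a minimum mean of 100 or none, scaling to the trimmed mean of M values or to equal totals, blocking on replicate number, and omission of single libraries. The fits were tested on simulated data.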

Additional observations from a re-analysis of the deposited data

Results flagged for a closer look

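In 7 of 228 groups of 5 libraries, from 114 genes, the highest or lowest library stood apart from the other 4 by Dixon's criterion, which chance alone meets in about 1 group in 20. AIMP2 in restricted library 2 was 529, against 632 to 645 in the other 4 libraries of its group. GAS5 in restricted library 1 was 3746, against 4702 to 5073 in the other 4 libraries of its group. HSP90AB1 in restricted library 1 was 16561, against 18612 to 19401 in the other 4 libraries of its group. ARRDC4 in control library 1 was 285, against 181 to 201 in the other 4 libraries of its group. BMF in restricted library 1 was 408, against 354 to 357 in the other 4 libraries of its group. FYN in control library 2 was 2064, against 1962 to 1984 in the other 4 libraries of its group. RGS16 in restricted library 2 was 725, against 525 to 578 in the other 4 libraries of its group. Restricted library 1 accounts for 3 of these and restricted library 2 for 2.

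The response to tryptophan restriction differed from another response, by limma's interaction term, in 7016 genes for histidine, 8631 for methionine and 5265 for phenylalanine. The differences below are log2 fold changes under tryptophan minus those under histidine, methionine and phenylalanine. MFAP4 had differences of 3.49, 2.36 and 4.51, H2BC21 2.57, 4.74 and 3.19 and JAML 2.78, 2.12 and 3.60. CREB5 had -6.51, -6.48 and -5.02, JUN -3.71, -2.997 and -4.72 and DUSP10 -3.07, -3.29 and -3.08. For all 6 genes the tryptophan control lay outside the range of the 15 control libraries of the other 3 tables.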

How the results depend on the processing

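The 8534 called genes became 7879 to 8295 on leaving out 1 library (3548 to 3790 higher, 4322 to 4585 lower). The rises numbered 2500 with a mean of at least 100, where fewer genes were tested, and 6832 with equal totals, where the falls numbered 2817; other settings stayed within 1.5 times of the counts given. No named gene changed direction under any setting. Of 64 counts of list members called higher or lower, 32 moved by more than 1.5 times with equal totals, and 14 of 640 did so on leaving out 1 library, of which 9 were rises of mitochondrial mRNAs. With equal totals SLC3A2, DDIT4 and CD3E became called and MCL1 was lost. On leaving out 1 library SLC7A5 was lost in 4 of 10 cases (restricted library 1 or 4, control library 1 or 4), with log2 fold changes of 0.19 to 0.25. Labels give both groups replicate numbers, but same-numbered libraries did not deviate together (correlations -0.12 to 0.05, none highest with its own number). With the replicate block 7798 genes were called, 3511 higher and 4287 lower, and SLC7A5 had an adjusted p of 0.0818; interaction calls numbered 6454, 8138 and 4435 for histidine, methionine and phenylalanine. Depth is known only as an estimate, so changes of genes near the minimum mean of 10 are the least certain.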
